A study of Homo sapiens with 14 samples.

Results

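Of 14 human neuroblastoma cell lines whose total RNA was sequenced, 5 are described here: the telomerase-negative lines Lan-6 and SK-N-FI, set against the TERT-high adrenergic lines CLB-GA, NBL-S and SH-SY5Y. The lines were chosen by their measured TERT. Lines under 0.1 CPM (CPM, a count relative to its library's scaled total) formed the telomerase-negative group, and lines over 15 CPM that were adrenergic and had MYCN under 500 CPM formed the TERT-high group. The labels give the name of each line and no class, treatment or replicate. Each line is 1 culture in RPMI1640 or DMEM with serum and no treatment named, sequenced as 1 library and grown from the tumour of 1 patient, so the difference between the groups and the differences between single lines cannot be told apart. That Lan-6 and SK-N-FI lengthen telomeres without telomerase, and that SH-SY5Y was subcloned from SK-N-SH, is known from outside the data, and telomere length was not analysed here.

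Telomerase adds telomeric repeats to chromosome ends with TERT, its reverse transcriptase, copying an RNA template, and TERT is silent in most adult cells. Tumours that do not use it can copy telomeres from one another by break-induced replication, a pathway known as alternative lengthening of telomeres. Loss of ATRX, which places the histone variant H3.3 at telomeres together with DAXX, is common in tumours of that kind. The adrenergic state of neuroblastoma is the one that resembles sympathetic neuroblasts, and the mesenchymal state resembles their migratory precursors.

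TERT had 2 counts in Lan-6 (0.0678 CPM) and 0 counts in SK-N-FI, where 3 counts, the limit that a count of 0 allows, would be 0.0542 CPM. In the TERT-high lines it was at 25.1, 19.3 and 17.4 CPM. Values of the telomerase-negative lines are given here and below in the order Lan-6, SK-N-FI, and those of the TERT-high lines in the order CLB-GA, NBL-S, SH-SY5Y. Since these values chose the lines, they are a description with no test. The lines nearest to the lower limit were SK-N-BE(2)C at 0.728 CPM and SK-N-AS at 0.921 CPM. SK-N-SH and IMR5-75, at 6.56 and 7.33 CPM, lay nearest below the upper limit. NGP (20.6 CPM) and GI-ME-N (68.5 CPM) passed the upper limit but were left out, NGP for MYCN at 1177 CPM and GI-ME-N for mesenchymal markers.

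TERT lies at chr5:1253147-1295069 on the minus strand (GENCODE 29, GRCh38). The stretch from 250 bases before to 50 bases after its start (chr5:1295019-1295318, minus strand, RefSeq, GRCh38.p14) is shown because TERT is the gene that separates the groups. Capitals mark the E-box CACGTG, the motif bound by MYC and MYCN, found once within this window on either strand, 163 bases before the start. The last letters of the window, cacgt, are the start of the same motif, and a motif that runs past the edge is not counted.
TERT: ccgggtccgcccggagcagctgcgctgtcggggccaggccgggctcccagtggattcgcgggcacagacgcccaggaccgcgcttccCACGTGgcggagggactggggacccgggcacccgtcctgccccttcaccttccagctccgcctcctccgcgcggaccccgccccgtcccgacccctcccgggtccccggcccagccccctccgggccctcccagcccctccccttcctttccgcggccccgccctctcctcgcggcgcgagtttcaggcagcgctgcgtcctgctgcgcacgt
G or C made up 77.3% of this window. An E-box was present in 7.26% of the 35116 promoters of the same length. Of the factors known to bind the TERT promoter, MYCN was used in choosing lines and is described only, at 7.29 and 49.95 CPM in the telomerase-negative lines, against 27.5, 213 and 21.5 CPM in the TERT-high lines.

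**Figure D1:**
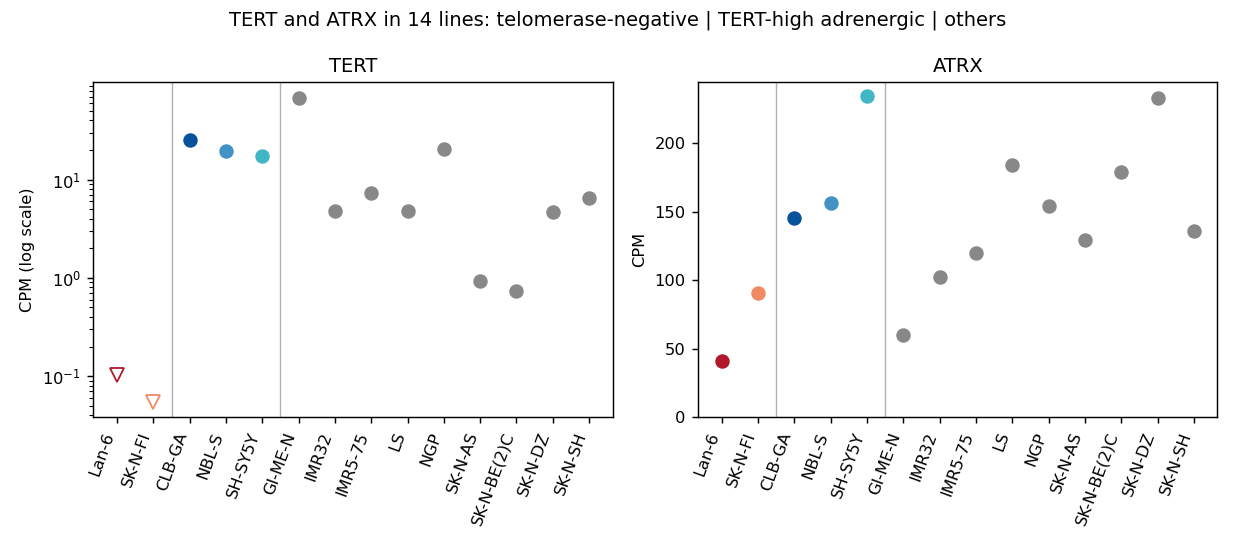
TERT (left, CPM on a log scale) and ATRX (right, CPM on a linear scale) in the 14 lines, 1 point per library, with the telomerase-negative lines first, then the TERT-high lines, then the other 9. Open triangles mark TERT at 3 counts or fewer, drawn at the level of 3 counts. ATRX was at 41.01 and 90.4 CPM in Lan-6 and SK-N-FI, below the 146, 156 and 235 CPM of the TERT-high lines, and GI-ME-N, outside both groups, was at 60.2 CPM.

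The adrenergic label held for both groups on the mean score over the adrenergic markers (log2 units from the mean of the 14 lines). It was 2.10 and 1.49 in the telomerase-negative lines, against 2.12, 1.75 and 1.46 in the TERT-high lines. The summed level of these markers was 26179 and 5164 CPM in the telomerase-negative lines, against 9913, 6396 and 6255 CPM in the TERT-high lines. This is a description, since those markers took part in choosing the TERT-high lines. HAND2, a transcription factor of the sympathetic lineage, was at 1008 and 735 CPM in the telomerase-negative lines, against 1101, 577 and 670.5 CPM in the TERT-high lines. Of the enzymes of noradrenaline synthesis, DBH was at 1482 and 557 CPM in the telomerase-negative lines, against 2267, 777 and 609 CPM in the TERT-high lines, while TH was at 374 and 5.70 CPM in the telomerase-negative lines, against 765, 281 and 0.551 CPM in the TERT-high lines. TH was thus low in SK-N-FI and SH-SY5Y, 1 line of each group. Of the mesenchymal markers, PRRX1 stayed under 1 CPM in the 5 lines, but CD44, a hyaluronan receptor, was at 99.4 and 278 CPM in the telomerase-negative lines, against 61.9, 6.34 and 10.9 CPM in the TERT-high lines, and IFI16, a DNA sensor on the mesenchymal list, was at 0.169 and 144 CPM in the telomerase-negative lines, against 0.106, 1.47 and 0.161 CPM in the TERT-high lines. The summed level of the 15 mesenchymal markers was 707 and 789.6 CPM in the telomerase-negative lines, against 279, 270.5 and 572 CPM in the TERT-high lines, so the groups did not overlap on it. On the mean score over these markers, which served to class the lines and weights each marker alike, they did overlap, with -1.62 and -0.15 in the telomerase-negative lines, against -1.95, -2.05 and -0.83 in the TERT-high lines (log2 units from the mean of the 14 lines). Lan-6 thus lay below SH-SY5Y on the score. In bulk RNA, more cells of a mesenchymal kind and more RNA per cell cannot be told apart.

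Library totals of the 5 lines ran from 35856642 counts in Lan-6 to 49315563 in SK-N-FI. The Lan-6 library stood apart. Its deviation from the mean of the 14 libraries had a rank correlation across genes of 0.622 with transcript GC content and of -0.274 with transcript length, against -0.148 and 0.0966 in SK-N-FI. Outside the 5 lines, GI-ME-N had 0.255 and -0.264. Mitochondrial genes held 9.77% of the Lan-6 counts, against 5.83% in SK-N-FI and 4.97%, 5.51% and 5.01% in the TERT-high lines. The factor that scaled the library total was 0.823 in Lan-6, against 1.12 in SK-N-FI and 1.02, 1.12 and 1.10 in the TERT-high lines. A second set of levels, called adjusted CPM below, had the trend on GC content and length removed from each library. The mitochondrial share was not adjusted for. For each result the level in SK-N-FI is given next to that in Lan-6, and a gene counts as not overlapping when both telomerase-negative lines lay above, or below, all 3 TERT-high lines.

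Of 20049 genes in the counts, 14943 had at least 1 CPM in at least 2 of the 5 lines and were tested with edgeR's quasi-likelihood test and Benjamini-Hochberg adjustment. None (0%) had an adjusted p under 0.05, and the smallest adjusted p was 0.387. At an unadjusted p under 0.05 there were 1057 genes (7.07%). DESeq2's Wald test made 264 calls on the same counts, at an adjusted p under 0.05 and with the groups apart (99 higher and 165 lower), and limma on the deposited log2 values made 0. With 2 lines against 3, the lines can be split in 10 ways, so no exact permutation test of a single gene could give a p below 0.1, one-sided or two-sided. Both telomerase-negative lines lay above all 3 TERT-high lines in 1627 genes (10.9%) and below them in 1962 genes (13.1%). In adjusted CPM the shares were 11.8% higher and 13% lower. In deposited and adjusted levels alike the groups were apart for 1268 higher genes (8.49%) and 1530 lower genes (10.2%). No gene or list below is therefore called changed by edgeR in this comparison. Log2 folds are those of the telomerase-negative over the TERT-high lines, and their median over all genes tested was 0.03.

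ATRX, a chromatin remodeller encoded at chrX:77504878-77786233, was at 41.01 and 90.4 CPM in the telomerase-negative lines, against 146, 156 and 235 CPM in the TERT-high lines. Both telomerase-negative lines lay below the 3 TERT-high lines, which averaged 179 ± 48.5 CPM (SD, n = 3). In adjusted CPM the values were 72.5 and 80.9 CPM in the telomerase-negative lines, against 137, 151 and 229 CPM in the TERT-high lines, and the groups still did not overlap. The log2 fold was -1.44 ± 0.52 (SE), with edgeR's unadjusted p = 0.0314 and adjusted p = 0.657, and with adjusted p-values of 0.0859 to 0.9998 over its 15 alternatives. With SK-N-FI alone the log2 fold was -0.98. In the other 9 lines ATRX ran from 60.2 to 233 CPM, and GI-ME-N was the line of those 9 that lay below SK-N-FI. ATRX RNA was thus present in both telomerase-negative lines, and whether it gives protein was not measured here. DAXX, the H3.3 chaperone that works with ATRX, was at 252 and 146 CPM in the telomerase-negative lines, against 154, 129 and 123 CPM in the TERT-high lines, and the groups overlapped.

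Of the 22 genes of telomeric chromatin and H3.3 deposition, all tested, 3 were higher and 3 lower without overlap, near the share over all genes. ATRX, HIRA and MORC3 were the lower ones. The higher ones were ASF1B, PML and SP100. PML, the scaffold of the nuclear bodies that gather telomeres in alternative lengthening, was at 52.8 and 44.2 CPM in the telomerase-negative lines, against 26.4, 26.1 and 21.4 CPM in the TERT-high lines. The log2 fold of PML was 0.98 ± 0.41 (SE), with edgeR's unadjusted p = 0.0542. ASF1B, a histone H3-H4 chaperone, was at 79.6 and 49.97 CPM in the telomerase-negative lines, against 29.3, 35.6 and 34.8 CPM in the TERT-high lines. SP100, another protein of PML bodies, was at 2.98 and 7.65 CPM in the telomerase-negative lines, against 2.51, 2.17 and 2.89 CPM in the TERT-high lines. In the other 9 lines it reached 84.95 CPM. With NGP and GI-ME-N counted as TERT-high its log2 fold of 1.07 turned to -1.83.

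Besides TERT, 11 telomerase components were tested, and 1 was higher and 1 lower without overlap, beside 10.9% and 13.1% of all genes. PARN, an RNase that matures the telomerase RNA, was higher, at 36.1 and 65.5 CPM in the telomerase-negative lines, against 34.4, 35.2 and 32.1 CPM in the TERT-high lines. SHQ1, an assembly factor of the same particle, was lower, at 22.8 and 44.4 CPM in the telomerase-negative lines, against 49.4, 44.7 and 45.2 CPM in the TERT-high lines. DKC1, which encodes dyskerin, the core protein bound to the telomerase RNA, was at 98.7 and 103 CPM in the telomerase-negative lines, against 97.4, 149 and 118 CPM in the TERT-high lines. The telomerase-negative lines thus held dyskerin RNA at levels within the range of the TERT-high lines. The list's median log2 fold was 0.43, or -0.06 with SK-N-FI alone.

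Shelterin, the complex that caps telomeres, had 6 members tested, of which TINF2 and TERF2IP were higher and none lower without overlap, beside 10.9% and 13.1% of all genes. In adjusted CPM 3 were higher, beside 11.8% of all genes. TINF2, which bridges the DNA-binding members, was at 54.1 and 35.9 CPM in the telomerase-negative lines, against 26.9, 27.5 and 23.95 CPM in the TERT-high lines. TERF2IP, which encodes RAP1, was at 102 and 126 CPM in the telomerase-negative lines, against 49.4, 95.3 and 101 CPM in the TERT-high lines, and NBL-S and SH-SY5Y lay close to Lan-6. ACD, which encodes TPP1 and recruits telomerase, was at 129.6 and 35.04 CPM in the telomerase-negative lines, against 16.7, 23.2 and 35.4 CPM in the TERT-high lines, with overlap by SH-SY5Y over SK-N-FI. In adjusted CPM its values were 62.9 and 36.95 CPM in the telomerase-negative lines, against 17.01, 24.6 and 33.5 CPM in the TERT-high lines, so most of the excess in Lan-6 went with the GC and length trend.

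Among 16 genes of telomere replication and end processing, 2 were higher and 3 lower without overlap, near the 10.9% and 13.1% of all genes. The lower ones were DNA2, TNKS and HMBOX1. TNKS, which encodes tankyrase, a poly-ADP-ribosyltransferase that acts on TERF1, was at 25.3 and 101 CPM in the telomerase-negative lines, against 176, 160.3 and 135 CPM in the TERT-high lines. In adjusted CPM it was at 39.2 and 91.7 CPM in the telomerase-negative lines, against 158, 153 and 131 CPM in the TERT-high lines. HMBOX1, a protein that binds telomeric repeats directly, was at 24.9 and 24.2 CPM in the telomerase-negative lines, against 30.95, 35.5 and 44.9 CPM in the TERT-high lines.

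The 48 listed genes of break-induced replication and recombination include those that alternative lengthening is known to need. Of the 47 tested, 5 were higher and 11 lower without overlap, beside 10.9% and 13.1% of all genes. In adjusted CPM these counts were 1 and 10. The median log2 fold was -0.28, and -0.03 with SK-N-FI alone. EXO1, a nuclease that resects DNA ends, was at 37.1 and 29.1 CPM in the telomerase-negative lines, against 85.6, 97.02 and 57.95 CPM in the TERT-high lines, and it held the smallest unadjusted p of the list in edgeR, 0.0264. NR2C2, an orphan nuclear receptor that binds variant telomere repeats, was at 21.2 and 110.1 CPM in the telomerase-negative lines, against 202, 217 and 197 CPM in the TERT-high lines. In NR2C2 the difference was carried mostly by Lan-6, while SK-N-FI lay closer to the TERT-high lines. WRN, a helicase of the RecQ family, showed the same with 3.12 and 37.7 CPM in the telomerase-negative lines, against 43.3, 48.5 and 46.2 CPM in the TERT-high lines. Of the factors that carry out the copying, BLM, the Bloom syndrome helicase, was at 22.2 and 65.9 CPM in the telomerase-negative lines, against 74.3, 73.6 and 54.4 CPM in the TERT-high lines. POLD3, a subunit of polymerase delta, was at 14.6 and 40.7 CPM in the telomerase-negative lines, against 50.7, 53.7 and 32.9 CPM in the TERT-high lines. The groups overlapped on both. RAD52, which anneals single strands, was at 15.8 and 23.3 CPM in the telomerase-negative lines, against 11.1, 13.3 and 14.3 CPM in the TERT-high lines, higher in the deposited levels but overlapping in adjusted CPM.

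Of 16 listed regulators of TERT transcription, 13 were tested, of which 4 were lower and none higher without overlap, beside 13.1% and 10.9% of all genes. In adjusted CPM 3 were lower. ETS1, an ETS-family factor, was at 2.14 and 6.19 CPM in the telomerase-negative lines, against 26.6, 24.8 and 68.6 CPM in the TERT-high lines, and the groups did not overlap. For ETS1 the log2 fold was -3.26 ± 0.84 (SE), with edgeR's unadjusted p = 0.00746, and in adjusted CPM it was -3.08. GABPA and GABPB1, which together form the GABP factor, were also lower. GABPA was at 13.4 and 44.1 CPM in the telomerase-negative lines, against 59.9, 63.98 and 45.7 CPM in the TERT-high lines, and GABPB1 was at 22.03 and 26.97 CPM in the telomerase-negative lines, against 29.4, 35.6 and 29.4 CPM in the TERT-high lines. MXD1, which competes with MYC for its partner MAX, was at 12.6 and 14.98 CPM in the telomerase-negative lines, against 24.6, 19.53 and 19.3 CPM in the TERT-high lines, but the groups overlapped on it in adjusted CPM. MYC was at 9.83 and 7.93 CPM in the telomerase-negative lines, against 6.65, 0.849 and 129 CPM in the TERT-high lines, so SH-SY5Y alone held it above 10 CPM.

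TERT sits near the tip of the short arm of chromosome 5. Of the 20 measured genes of its band 5p15.33, 17 were tested, of which 1 was higher and none lower without overlap, beside 10.9% and 13.1% of all genes. In adjusted CPM none was higher and 1 lower, so neither direction held in both sets of levels. CLPTM1L, the gene next to TERT, was at 209 and 185 CPM in the telomerase-negative lines, against 182, 145 and 145 CPM in the TERT-high lines, higher in the deposited levels and overlapping in adjusted CPM. SLC6A3, which lies beyond CLPTM1L, had at most 0.0229 CPM in any of the 5 lines. PLEKHG4B, a guanine exchange factor gene of the same band, was at 0.441 and 0.361 CPM in the telomerase-negative lines, against 0.274, 42.8 and 46.4 CPM in the TERT-high lines. CLB-GA, a TERT-high line, thus lay with the telomerase-negative lines, and the groups overlapped.

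The antigen presentation list covers MHC class I molecules, their peptide supply and their regulator. All 5 lines are tumour cells of a type known for low MHC class I. Of 15 listed genes, 14 were tested, of which 9 were higher without overlap and none lower, beside 10.9% and 13.1% of all genes. In adjusted CPM the counts were the same. The median log2 fold was 2.74, 2.65 in adjusted CPM and 3.44 with SK-N-FI alone, against 0.03, 0.02 and -0.06 over all genes. DESeq2 called 8 of the list as higher, beside 0.666% of all genes, and edgeR none. PSMB8, HLA-B and TAP1 passed the filter on low levels only through the telomerase-negative lines, so their being tested rested on the higher group.

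B2M, the light chain of class I molecules, was at 207 and 431 CPM in the telomerase-negative lines, against 76.1, 103 and 53.1 CPM in the TERT-high lines. This is a log2 fold of 2.05 ± 0.50 (SE), with edgeR's unadjusted p = 0.00614. The heavy chain HLA-B was at 1.59 and 23.00 CPM in the telomerase-negative lines, against 0.106, 0.0621 and 0.688 CPM in the TERT-high lines. HLA-C was at 2.24 and 86.4 CPM in the telomerase-negative lines, against 8.57, 0.0414 and 7.46 CPM in the TERT-high lines, and HLA-E was at 0.102 and 7.67 CPM in the telomerase-negative lines, against 0.148, 0.186 and 2.23 CPM in the TERT-high lines, both with overlap. SK-N-FI thus held more than Lan-6 of HLA-B, HLA-C and HLA-E. HLA genes resemble each other and differ between people, so their estimated counts are uncertain.

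The genes that supply peptides were apart as well. TAP1 and TAP2 form the transporter that carries peptides into the endoplasmic reticulum. TAP1 was at 1.69 and 17.3 CPM in the telomerase-negative lines, against 0.0845, 0.124 and 0.482 CPM in the TERT-high lines, and TAP2 was at 12.03 and 35.3 CPM in the telomerase-negative lines, against 0.528, 0.394 and 3.83 CPM in the TERT-high lines. TAPBP, the tapasin gene, which loads peptides onto class I molecules, was at 121 and 45.2 CPM in the telomerase-negative lines, against 12.5, 16.2 and 20.8 CPM in the TERT-high lines. Its log2 fold of 2.33 became 1.66 in adjusted CPM, which corrects for GC content and length. ERAP2, an aminopeptidase that trims peptides, was at 13.1 and 26.00 CPM in the telomerase-negative lines, against 0.866, 1.45 and 0.941 CPM in the TERT-high lines. The log2 fold of ERAP2 was 4.17 ± 0.68 (SE), with edgeR's unadjusted p = 0.000740. PSMB8, a catalytic subunit of the immunoproteasome, was at 12.9 and 13.8 CPM in the telomerase-negative lines, against 0, 0 and 0.321 CPM in the TERT-high lines. NLRC5, the transactivator of class I genes, was at 5.22 and 7.19 CPM in the telomerase-negative lines, against 0.338, 1.04 and 0.252 CPM in the TERT-high lines. CALR, a chaperone of the same pathway that most cells express, was at 675 and 449 CPM in the telomerase-negative lines, against 673, 401 and 469 CPM in the TERT-high lines, with overlap.

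Of 20 interferon-stimulated genes, 17 were tested, of which 9 were higher without overlap and none lower, beside 10.9% and 13.1% of all genes. In adjusted CPM 11 were higher, beside 11.8% of all genes. The median log2 fold was 1.95, or 2.51 with SK-N-FI alone. DESeq2 called 5 of them as higher, beside 0.666% of all genes, and edgeR none. USP18 and BST2 passed the filter on low levels only through the telomerase-negative lines. IFI6, an interferon-induced mitochondrial protein, was at 46.5 and 122 CPM in the telomerase-negative lines, against 1.41, 3.27 and 4.75 CPM in the TERT-high lines. The TERT-high lines averaged 3.15 ± 1.67 CPM (SD, n = 3), and the log2 fold was 4.74 ± 0.75 (SE), with edgeR's unadjusted p = 0.000622. IFI27 was at 17.8 and 35.6 CPM in the telomerase-negative lines, against 3.34, 2.96 and 3.83 CPM in the TERT-high lines. OAS1, which makes the oligoadenylates that activate RNase L, was at 81.9 and 22.5 CPM in the telomerase-negative lines, against 2.15, 2.75 and 2.23 CPM in the TERT-high lines, and here Lan-6 held more than SK-N-FI. OAS3 was at 29.3 and 78.8 CPM in the telomerase-negative lines, against 3.25, 0.311 and 6.93 CPM in the TERT-high lines. BST2, which encodes tetherin, was at 3.39 and 2.36 CPM in the telomerase-negative lines, against 0.232, 0.249 and 0.367 CPM in the TERT-high lines.

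Of the transcription factors that carry the interferon signal, STAT2 was at 103 and 114 CPM in the telomerase-negative lines, against 59.4, 54.2 and 54.6 CPM in the TERT-high lines, without overlap. IRF9 was at 47.5 and 19.1 CPM in the telomerase-negative lines, against 19.4, 9.96 and 11.7 CPM in the TERT-high lines, with overlap. Some effector genes were high in SK-N-FI but not in Lan-6. MX2 was at 3.25 and 100.3 CPM in the telomerase-negative lines, against 3.40, 31.6 and 2.66 CPM in the TERT-high lines, with NBL-S between. IFI44 had 0 counts in Lan-6 and was at 21.9 CPM in SK-N-FI, against at most 0.275 CPM in the TERT-high lines. Of 9 tested sensors of cytosolic nucleic acids, 1 was higher and 1 lower without overlap, near the shares of all genes. In adjusted CPM 3 were higher and none lower, beside 11.8% and 13% of all genes. CGAS, the DNA sensor, was under 1 CPM in the 5 lines. MAVS, the adaptor of the RNA sensors, was at 155 and 153 CPM in the telomerase-negative lines, against 112, 91.7 and 83.9 CPM in the TERT-high lines. ADAR, which edits double-stranded RNA, was at 246 and 266 CPM in the telomerase-negative lines, against 299.6, 407 and 382 CPM in the TERT-high lines, with overlap in adjusted CPM.

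Markers of other cells were read beside these lists. Of 8 leukocyte markers, CD3E, CD3D and MS4A1 had 0 counts in the 5 lines. PTPRC, the pan-leukocyte gene, was at 0.610 and 0.849 CPM in the telomerase-negative lines, against 1.44, 0.829 and 1.47 CPM in the TERT-high lines, and the groups overlapped. Of the 3 markers tested, CD14, a monocyte receptor, was higher without overlap, at 2.37 and 1.14 CPM in the telomerase-negative lines, against 1.01, 0.808 and 0.895 CPM in the TERT-high lines, and its part in the result was not tested. The summed level of the 8 was 11.7 and 5.92 CPM in the telomerase-negative lines, against 9.16, 5.24 and 4.96 CPM in the TERT-high lines. The 6 endothelial markers summed to 2.37 and 10.7 CPM in the telomerase-negative lines, against 4.88, 7.04 and 2.94 CPM in the TERT-high lines. The sums of the 8 fibroblast markers were 134 and 243 CPM in the telomerase-negative lines, against 159, 95.3 and 389 CPM in the TERT-high lines. On each of these sums the groups overlapped. Of the 7 fibroblast markers tested, THY1, also a neuronal surface protein, was higher and COL3A1 lower without overlap, and of the 3 endothelial markers tested PECAM1 was lower. The 6 Schwann cell markers summed to 51.8 and 142 CPM in the telomerase-negative lines, against 63.4, 40.4 and 41.05 CPM in the TERT-high lines, of which PMP22 made up most. The mesenchymal markers were higher in both telomerase-negative lines by their sum but overlapped by their mean score, as given above, and their part in the levels of the immune genes was not tested.

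Promoter windows of the same kind as for TERT were in the table for 7 of the 9 non-overlapping antigen presentation genes and 7 of the 9 interferon-stimulated genes. They were searched on both strands for GAAANNGAAA, the core of the element bound by IRF9 and by other IRF factors. It was found in 4 of the 7 antigen presentation windows and 5 of the 7 interferon windows. The share was 3.57% of the 35116 promoters and 2.63% of the tested genes with a window. Since the lists were chosen by function, these shares describe the lists and not the lines. Over the tested members with a window, overlapping or not, it was found in 6 of 11 and in 10 of 13. It was thus also present in members on which the groups overlapped, and a match is a description, not a site. Windows of 5 of these genes are shown because they were higher together and hold the motif, in capitals, or its reverse complement. They lie at chr15:44711267-44711566, plus strand (B2M), chr6:33314029-33314328, minus strand (TAPBP), chr1:27672143-27672442, minus strand (IFI6), chr14:94110486-94110785, plus strand (IFI27) and chr19:17405581-17405880, minus strand (BST2), from RefSeq on GRCh38.p14.
B2M: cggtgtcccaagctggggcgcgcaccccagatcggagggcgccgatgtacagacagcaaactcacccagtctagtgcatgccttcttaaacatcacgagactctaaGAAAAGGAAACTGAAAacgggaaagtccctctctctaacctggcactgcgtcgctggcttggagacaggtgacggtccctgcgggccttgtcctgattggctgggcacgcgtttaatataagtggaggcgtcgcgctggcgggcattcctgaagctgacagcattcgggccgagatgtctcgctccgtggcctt
TAPBP: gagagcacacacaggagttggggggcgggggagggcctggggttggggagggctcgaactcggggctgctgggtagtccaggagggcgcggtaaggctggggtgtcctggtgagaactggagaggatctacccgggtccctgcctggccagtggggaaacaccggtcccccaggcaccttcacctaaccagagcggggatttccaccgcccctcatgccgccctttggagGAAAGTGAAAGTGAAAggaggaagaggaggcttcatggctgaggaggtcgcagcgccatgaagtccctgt
IFI6: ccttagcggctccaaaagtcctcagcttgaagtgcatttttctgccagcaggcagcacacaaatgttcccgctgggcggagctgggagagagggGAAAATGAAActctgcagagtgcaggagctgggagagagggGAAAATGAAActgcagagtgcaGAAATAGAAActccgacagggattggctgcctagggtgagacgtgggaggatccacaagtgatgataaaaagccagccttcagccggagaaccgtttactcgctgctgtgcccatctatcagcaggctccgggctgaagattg
IFI27: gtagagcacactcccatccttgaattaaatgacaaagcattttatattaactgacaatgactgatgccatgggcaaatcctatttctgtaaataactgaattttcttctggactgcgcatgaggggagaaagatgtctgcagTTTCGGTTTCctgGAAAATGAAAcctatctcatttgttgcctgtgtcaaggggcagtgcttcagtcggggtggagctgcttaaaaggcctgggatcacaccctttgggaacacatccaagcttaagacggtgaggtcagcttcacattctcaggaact
BST2: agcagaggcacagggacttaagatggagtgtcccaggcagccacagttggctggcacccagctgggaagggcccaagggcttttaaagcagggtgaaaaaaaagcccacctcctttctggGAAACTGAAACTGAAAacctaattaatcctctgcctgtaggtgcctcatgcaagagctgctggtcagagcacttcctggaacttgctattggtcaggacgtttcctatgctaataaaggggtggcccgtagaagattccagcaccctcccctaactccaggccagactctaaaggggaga
IFI6 held the motif 3 times and the other 4 genes 2 times each, in part overlapping. ERAP2, HLA-B, PSMB8, OAS1 and STAT2 held none in their windows, which says only that these letters are not in those 300 bases.

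**Figure D2:**
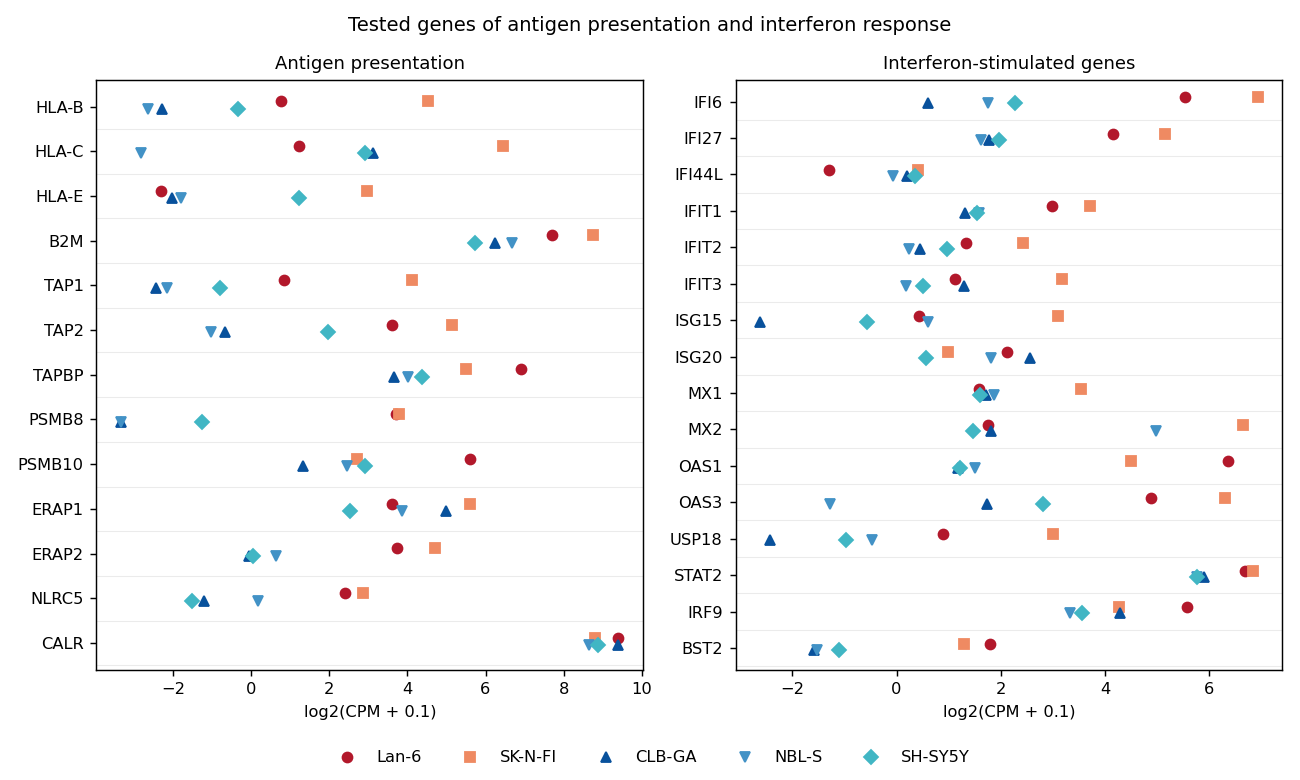
Levels of the tested genes of antigen presentation (left) and interferon response (right) that are drawn, as log2 of CPM plus 0.1, 1 symbol per line. Red circles (Lan-6) and orange squares (SK-N-FI) lie right of all blue symbols (TERT-high lines) for 8 of the 13 genes drawn on the left and 9 of the 16 drawn on the right, while CALR and IFI44L overlap.

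Across all genes, the largest folds were named by a rule. The conditions were a mean of at least 5 CPM over the 5 lines, an unadjusted p under 0.05 in edgeR and groups apart in both deposited and adjusted CPM. They were met by 398 higher and 301 lower genes, of which the 15 with the largest absolute log2 fold per direction are given. EdgeR called none of these 30, with adjusted p-values of 0.387 or more. DESeq2's Wald test called 27 of the 30, among its 264 calls over all genes, so their calling depended on the test. Of the 15 higher genes 8 passed the filter on low levels only through the telomerase-negative lines, and of the 15 lower genes 12 only through the TERT-high lines, so that these had to differ. Each value therefore describes these 5 libraries.

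PSMB8 and HLA-B, described above, were among the 15 higher genes. PARP12, an interferon-induced ADP-ribosyltransferase, was at 26.6 and 21.1 CPM in the telomerase-negative lines, against 0.148, 0.186 and 0.597 CPM in the TERT-high lines. PARP12 had a log2 fold of 6.26 ± 0.89 (SE) (edgeR's unadjusted p = 0.000357), which fell to 1.55 against all 12 other lines. IFI35, an interferon-induced leucine zipper protein, was at 33.6 and 4.80 CPM in the telomerase-negative lines, against 0.190, 0.311 and 0.321 CPM in the TERT-high lines.

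HTR3A, a serotonin-gated channel subunit, was at 3.93 and 212 CPM in the telomerase-negative lines, against 1.27, 1.74 and 0 CPM in the TERT-high lines. HTR2B, a G-protein-coupled serotonin receptor, was at 26.3 and 8.09 CPM in the telomerase-negative lines, against 0.0211, 0.414 and 0.321 CPM in the TERT-high lines. HTR3A was thus high mostly in SK-N-FI, and HTR2B in both lines. KCNAB1, the beta subunit of a potassium channel, was at 119 and 63.6 CPM in the telomerase-negative lines, against 1.56, 1.88 and 2.82 CPM in the TERT-high lines. It held the smallest unadjusted p of the 15 (log2 fold 5.44 ± 0.57 (SE), edgeR's unadjusted p = 6.07e-05). Against all 12 other lines the log2 fold of KCNAB1 fell to 1.25. ENTPD3, an enzyme that breaks down extracellular ATP, was at 7.66 and 213 CPM in the telomerase-negative lines, against 0.148, 3.29 and 0.161 CPM in the TERT-high lines.

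TMEM176A and TMEM176B, neighbouring membrane protein genes on chromosome 7 whose annotated spans overlap, were both higher. TMEM176A was at 119.8 and 31.5 CPM in the telomerase-negative lines, against 1.94, 1.39 and 0.390 CPM in the TERT-high lines, and TMEM176B was at 140.3 and 58.3 CPM in the telomerase-negative lines, against 3.17, 1.68 and 0.665 CPM in the TERT-high lines. The strand setting of the counting is not given in the sources used here, so reads of the pair may be shared. S100A16, a calcium-binding protein, was at 101 and 37.7 CPM in the telomerase-negative lines, against 0.612, 3.04 and 1.15 CPM in the TERT-high lines. STOM, which encodes the membrane protein stomatin, was at 28.3 and 522 CPM in the telomerase-negative lines, against 1.20, 0.704 and 11.3 CPM in the TERT-high lines. STOM and S100A16 were also high in some lines outside both groups, up to 109.8 and 503 CPM. The remaining higher genes were MSRB3, a methionine sulfoxide reductase at 2.61 and 74.99 CPM in the telomerase-negative lines, against 0.317, 0.476 and 0.574 CPM in the TERT-high lines, ANGPTL4 and IL13RA2. ANGPTL4, a secreted inhibitor of lipoprotein lipase, was at 73.6 and 2.49 CPM in the telomerase-negative lines, against 0.422, 0.787 and 0.872 CPM in the TERT-high lines, mostly in Lan-6. IL13RA2, a decoy receptor of interleukin 13, was at 4.64 and 27.9 CPM in the telomerase-negative lines, against 0.127, 0.870 and 0.206 CPM in the TERT-high lines. With NGP and GI-ME-N counted as TERT-high, the log2 folds of S100A16 and IL13RA2 turned to -0.55 and -0.084. Against all 12 other lines the log2 fold of MSRB3 was 0.67. Those of TMEM176A and TMEM176B were at least 4.66 and 4.97 under every alternative.

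Of the 15 lower genes, NNAT, the imprinted gene of neuronatin, was at 0.373 and 1.03 CPM in the telomerase-negative lines, against 166, 107 and 205 CPM in the TERT-high lines. It held the smallest unadjusted p over all genes, 5.48e-05, with a log2 fold of -7.80 ± 0.80 (SE). NCAN, which encodes neurocan, a proteoglycan of the nervous system, was at 0.0339 and 0.415 CPM in the telomerase-negative lines, against 39.3, 42.6 and 60.98 CPM in the TERT-high lines. LINGO1, an inhibitor of axon growth, was at 0.542 and 0.0361 CPM in the telomerase-negative lines, against 51.9, 36.8 and 24.9 CPM in the TERT-high lines, and DIRAS1, a small GTPase, was at 0.0678 and 0.542 CPM in the telomerase-negative lines, against 33.8, 30.7 and 58.1 CPM in the TERT-high lines. For these 4 genes each TERT-high line was well above both telomerase-negative lines.

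B4GALNT4, a glycosyltransferase, was at 0.203 and 0.253 CPM in the telomerase-negative lines, against 97.1, 35.5 and 165 CPM in the TERT-high lines. PLPPR3, a phospholipid phosphatase-related protein of neuronal membranes, was at 0.271 and 0.108 CPM in the telomerase-negative lines, against 52.999, 14.1 and 60.6 CPM in the TERT-high lines. GUCY1B1, a subunit of the nitric oxide receptor, was at 0.237 and 0.0361 CPM in the telomerase-negative lines, against 23.4, 16.2 and 14.7 CPM in the TERT-high lines. SEMA5A, an axon guidance molecule, and ADGRL3, an adhesion receptor, showed the same pattern. SEMA5A was at 0.780 and 0.253 CPM in the telomerase-negative lines, against 63.9, 23.4 and 136 CPM in the TERT-high lines, and ADGRL3 was at 0 and 0.235 CPM in the telomerase-negative lines, against 9.14, 13.4 and 12.7 CPM in the TERT-high lines. In other genes 1 TERT-high line carried most of the difference. IGF2BP1, an RNA-binding protein that stabilises MYCN and other messages, was at 0.508 and 1.32 CPM in the telomerase-negative lines, against 1972, 142 and 4.22 CPM in the TERT-high lines, high in CLB-GA. NEBL and RORB were high in SH-SY5Y. NEBL, an actin-binding protein, was at 0.441 and 0.199 CPM in the telomerase-negative lines, against 3.93, 2.98 and 207 CPM in the TERT-high lines, and RORB, a nuclear receptor, was at 0.237 and 0.162 CPM in the telomerase-negative lines, against 1.01, 1.28 and 58.3 CPM in the TERT-high lines. EDIL3, a secreted integrin ligand, had 0 and 1 counts in the telomerase-negative lines, against 91.8, 0.290 and 29.1 CPM in the TERT-high lines. NBL-S was thus close to them, and no fold is given at such counts. COL26A1, a collagen gene, was at 0.136 and 0.0181 CPM in the telomerase-negative lines, against 25.04, 3.71 and 3.03 CPM in the TERT-high lines.

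**Figure D3:**
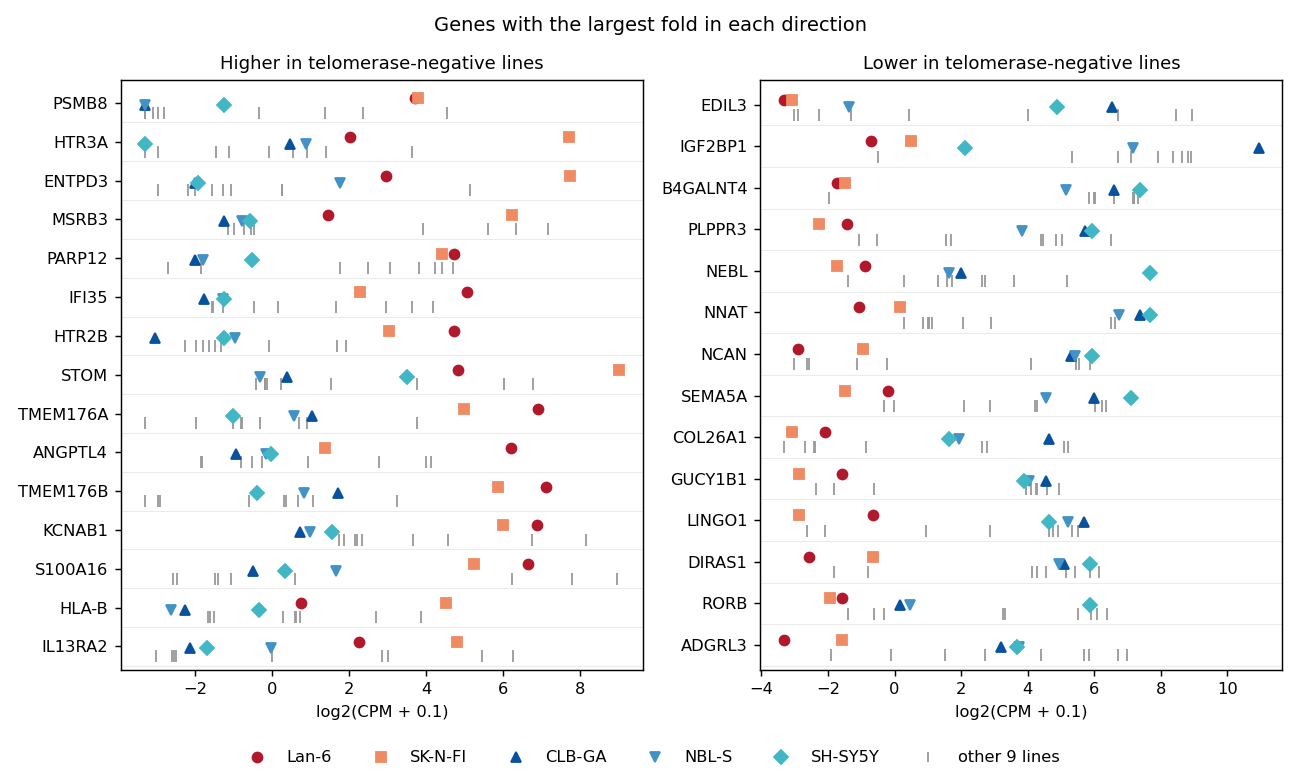
Levels of 15 higher (left) and 14 lower (right) genes among those with the largest fold, as log2 of CPM plus 0.1. Red circles and orange squares are Lan-6 and SK-N-FI, blue symbols the TERT-high lines and grey ticks the other 9 lines. NNAT shows the 3 TERT-high lines at 107 to 205 CPM and every other line at 98.3 CPM or less.

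A wider comparison set the telomerase-negative lines against all 12 other lines, which share the TERT-high lines with the comparison above. Of 14943 genes, 8 (0.0535%) had an adjusted p under 0.05 in edgeR's quasi-likelihood test and groups that did not overlap. Of these, 6 were higher and 2 lower. The filter on low levels was still that of the 5 lines. SOAT2 and KRT42P passed it only through the telomerase-negative lines, and CD248 only through the TERT-high lines. Their being tested thus rested on the group in which they were higher. The other 12 include lines with MYCN amplification and lines in the mesenchymal state, so TERT is 1 of several ways in which they differ. They also include SH-SY5Y with SK-N-SH, from which it was subcloned, and IMR5-75 with its parent IMR32, so the 12 lines are not 12 independent tumours. Without SK-N-SH and IMR5-75, an alternative chosen after seeing the data, 3 of the 8 genes were still called, NFKBIE, SOAT2 and CD248 (edgeR's adjusted p = 0.0359 for each), and no other gene. The other 5 kept their direction, with adjusted p-values up to 0.160. Of the 493 genes in which the 2 lines lay on 1 side of all 12, 228 were higher and 265 lower.

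NFKBIE, an inhibitor of NF-kappa-B, rose in the telomerase-negative lines with the smallest unadjusted p. It was at 49.5 and 109.6 CPM in the telomerase-negative lines, against 5.11 to 21.1 CPM (median 8.57) in the other 12 lines. The log2 fold was 3.09 ± 0.38 (SE), with edgeR's adjusted p = 0.0100, against 0.478 in edgeR's comparison of the 5 lines. SOAT2, which esterifies cholesterol, also rose, and it was at 5.42 and 10.8 CPM in the telomerase-negative lines, against 0.0214 to 0.527 CPM (median 0.0652) in the other 12 lines. Its log2 fold was 6.10 ± 0.78 (SE), with edgeR's adjusted p = 0.0100 (0.411 in edgeR's comparison of the 5 lines).

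The interferon-stimulated genes IFI6 and IFI27 were among the 6, both with an adjusted p of 0.0689 in edgeR without the related lines. IFI27 was at 17.8 and 35.6 CPM in the telomerase-negative lines, against 0.921 to 4.97 CPM (median 2.76) in the other 12 lines. Its log2 fold was 3.35 ± 0.49 (SE), with edgeR's adjusted p = 0.0199 (0.582 in edgeR's comparison of the 5 lines). IFI6 was at 46.5 and 122 CPM in the telomerase-negative lines, against 0.449 to 13.5 CPM (median 3.91) in the other 12 lines. Its log2 fold was 4.16 ± 0.69 (SE), with edgeR's adjusted p = 0.0461 (0.428 in edgeR's comparison of the 5 lines). OAS1 likewise lay above all 12, the highest of which was at 5.24 CPM, but it was not called. No gene of antigen presentation lay above all 12, as lines such as SK-N-SH held more.

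ADAM28, a metalloproteinase, was also called and was at 2.68 and 13.1 CPM in the telomerase-negative lines, against 0.155 to 1.41 CPM (median 0.739) in the other 12 lines. For ADAM28 edgeR's adjusted p was 0.0461, against 0.657 in edgeR's comparison of the 5 lines. KRT42P, a keratin pseudogene whose reads may come from related keratins, was at 4.51 and 1.05 CPM in the telomerase-negative lines, against 0.120 to 0.527 CPM (median 0.253) in the other 12 lines. For KRT42P edgeR's adjusted p was 0.0175, against 0.657 in edgeR's comparison of the 5 lines. Both had low levels in the 12 lines.

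The 2 genes that fell were CD248 and TGIF2, of which TGIF2 was not called without the related lines (edgeR's adjusted p = 0.111). CD248, which encodes endosialin, a surface glycoprotein, was at 0.102 and 0.162 CPM in the telomerase-negative lines, against 2.33 to 43.8 CPM (median 15.5) in the other 12 lines. Its log2 fold was -7.19 ± 1.19 (SE), with edgeR's adjusted p = 0.0461 (0.387 in edgeR's comparison of the 5 lines). TGIF2, a homeobox repressor of TGF-beta signalling, was at 1.42 and 2.20 CPM in the telomerase-negative lines, against 12.6 to 90.5 CPM (median 48.1) in the other 12 lines. Its log2 fold was -4.67 ± 0.78 (SE), with edgeR's adjusted p = 0.0461 (0.436 in edgeR's comparison of the 5 lines). For both the 2 lines lay below the lowest of the 12.

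Of 14 tested driver genes of neuroblastoma, 4 were lower and none higher without overlap between the telomerase-negative and TERT-high lines, beside 13.1% and 10.9% of all genes. These were ATRX, NF1, MDM2 and ARID1A, and in adjusted CPM ATRX and NF1. NF1, which encodes the RAS inhibitor neurofibromin, was at 47.1 and 87.03 CPM in the telomerase-negative lines, against 145, 91.8 and 112 CPM in the TERT-high lines. On the deposited log2 scale its difference of -0.80 turned to 0.22 with limma. ALK, a receptor tyrosine kinase, was at 24.7 and 60.9 CPM in the telomerase-negative lines, against 258, 41.3 and 262 CPM in the TERT-high lines, with overlap by NBL-S.

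Among 15 tested genes of RAS-MAPK feedback, 4 were higher and 1 lower without overlap, beside 10.9% and 13.1% of all genes. IER3 passed the filter on low levels only through the telomerase-negative lines, and SPRY1 only through the TERT-high lines. In adjusted CPM these counts were 3 and 1. DUSP4, a phosphatase that acts on MAP kinases, was at 117 and 1285 CPM in the telomerase-negative lines, against 87.2, 58.7 and 87.02 CPM in the TERT-high lines, with most of the excess in SK-N-FI. DUSP5, a phosphatase of ERK, was at 23.1 and 32.3 CPM in the telomerase-negative lines, against 7.56, 8.49 and 1.49 CPM in the TERT-high lines. SPRY4, an inhibitor of receptor signalling, was at 159 and 162 CPM in the telomerase-negative lines, against 87.7, 88.5 and 37.6 CPM in the TERT-high lines, and its paralog SPRY1 was at 0 and 0.307 CPM in the telomerase-negative lines, against 1.67, 1.16 and 2.41 CPM in the TERT-high lines. DUSP6, a phosphatase of ERK as well, was at 17.2 and 116 CPM in the telomerase-negative lines, against 104, 36.3 and 97.99 CPM in the TERT-high lines, and the groups overlapped. IER3 was at 1.80 and 62.7 CPM in the telomerase-negative lines, against 0.950, 0.559 and 0.551 CPM in the TERT-high lines, but the groups overlapped on it in adjusted CPM.

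Proliferation genes mostly overlapped, with 1 of 12 higher and 1 lower, near the shares of all genes. MKI67, the Ki-67 gene, was at 259 and 286 CPM in the telomerase-negative lines, against 630.4, 480.1 and 319 CPM in the TERT-high lines, lower in the deposited levels and overlapping in adjusted CPM. Of 11 tested cancer-testis and germ cell genes 1, STK31, was lower and none higher without overlap, beside 13.1% and 10.9% of all genes. Through the TERT-high lines alone, 2 of the 11 passed the filter on low levels. MAGEA4, a tumour antigen gene of the X chromosome, was at 363 and 327 CPM in the telomerase-negative lines, against 0.127, 402 and 0.0229 CPM in the TERT-high lines, and thus high in NBL-S as in both telomerase-negative lines. PRAME, another tumour antigen, was at 554 and 141 CPM in the telomerase-negative lines, against 400.4, 275 and 440.2 CPM in the TERT-high lines. MAGEA3 and MAGEA6 are near-identical copies, and their estimated counts are uncertain.

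**Figure D4:**
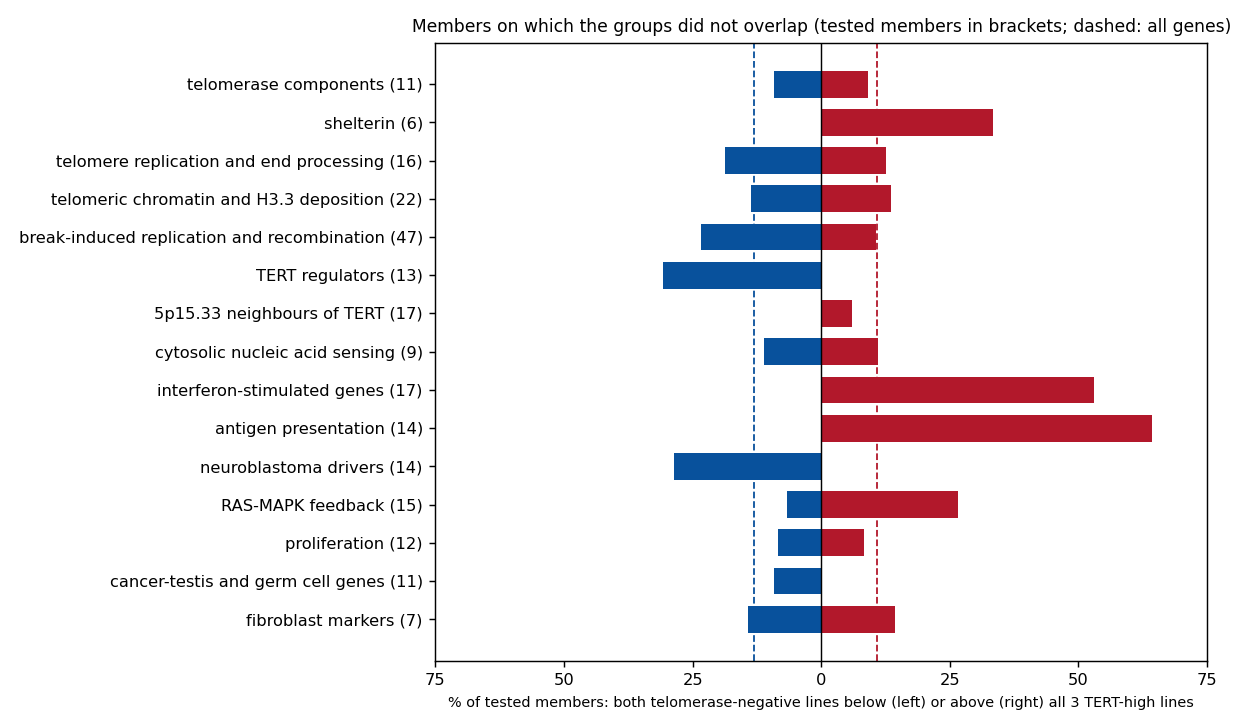
Share of the tested members of 15 gene lists in which both telomerase-negative lines lay below (blue, left of 0) or above (red, right of 0) all 3 TERT-high lines, in percent of tested members, with the number tested in brackets. Dashed lines mark all genes tested, 13.1% lower and 10.9% higher. Antigen presentation (9 of 14) and interferon-stimulated genes (9 of 17) have the longest red bars and no blue bar.

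The non-overlapping genes were spread unevenly over the chromosomes. On chromosome 12, 160 of 768 tested genes (20.8%) were higher and 45 (5.86%) lower, with a median log2 fold of 0.30, and 0.37 with SK-N-FI alone. On chromosome 16, 144 of 704 genes (20.5%) were higher, with a median of 0.51, but of 0.07 with SK-N-FI alone. On chromosome 18, 56 of 207 genes (27.1%) were lower and 7 (3.38%) higher, with a median of -0.40, and -0.32 with SK-N-FI alone. The medians of chromosomes 12 and 18 thus held their sign and much of their size in SK-N-FI, while that of chromosome 16 was near 0 in SK-N-FI. In adjusted CPM the medians were 0.27, 0.27 and -0.28 on chromosomes 12, 16 and 18. Copy number was not analysed here. OAS1, OAS3, STAT2, MSRB3 and SOAT2 lie on chromosome 12.

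**Figure D5:**
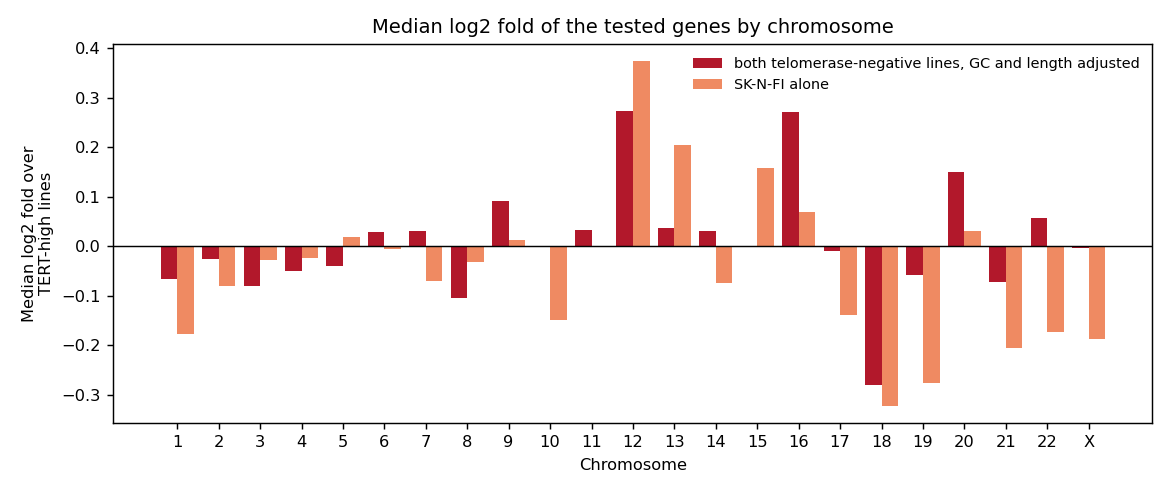
Median log2 fold of the tested genes of each chromosome over the TERT-high lines, for both telomerase-negative lines in GC and length adjusted levels (red) and for SK-N-FI alone in deposited levels (orange). Chromosome 12 lies at 0.27 and 0.37 and chromosome 18 at -0.28 and -0.32, the widest deviations that both bars share.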

How the data were processed

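Per the labels' protocols, RNA was extracted with TRIzol and sequenced from TruSeq libraries. Kallisto 0.44.0, DESeq2 1.48.2 and GRCh38 stand in the submitters' processing notes, without a role. For the annotation, strandedness and filtering, the settings are not given in the sources used. The authors deposited a table of whole numbers per gene symbol. These deposited values are whole and unscaled, and they were read as estimated counts (expected counts), the kind kallisto gives, rounded before the authors deposited them. No source used here states the unit. The authors also deposited log2 values, called variance-stabilised with no settings, which served as an alternative scale.

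CPM were computed with TMM factors over the 14 libraries in edgeR 4.0.16 (R 4.3.3). Adjusted CPM had a smooth trend on transcript GC content and length (natural splines with 4 degrees of freedom each, from genes above 8 CPM within 2 log2 units of the mean) removed per library. The fit of the 5 lines had 3 residual degrees of freedom and no covariates. The p-values measure the spread between these lines, which may be technical in part, and limits from counts cover counting error only. Positions are from GENCODE 29, in which 98.7% of the symbols matched 1 gene. No library was a copy of another over the 91 pairs (smallest chi-square per gene 257). SK-N-FI alone was set against the TERT-high lines as a second test.

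Genes named in the text are list members and, per direction, the 15 with the largest absolute log2 fold among genes averaging at least 5 CPM that did not overlap in deposited and adjusted CPM. Called genes went first, and since none was called, genes with an unadjusted p under 0.05 filled the places. A line counted as adrenergic when its mean score over adrenergic markers exceeded that over mesenchymal markers. Some genes are not reported here. The lines, lists and rules were chosen with earlier results of these data known. As alternatives, size factors of DESeq2, its Wald test (DESeq2 1.42.0), limma 3.58.1 on the log2 values, no filter, a filter at 5 CPM, GC and length offsets, glmTreat at a log2 fold of 1, each line left out, NGP and GI-ME-N added, all 12 other lines, and the other 9 lines as a group of their own in the fit were tried. For the comparison with 12 lines, SK-N-SH and IMR5-75 were also left out, chosen after seeing the data.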

Additional observations from a re-analysis of the deposited data

How the results depend on the processing

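The count of 0 calls over all genes held in edgeR with DESeq2's size factors, without and with a stricter filter, with GC and length offsets, with glmTreat, with the other 9 lines as a group of their own, with NGP and GI-ME-N added and with each line left out (0 to 0 calls), and in limma. It did not hold in DESeq2's Wald test (264 calls, 99 higher and 165 lower) or against all 12 other lines (8 calls, 6 higher and 2 lower). The cause was not tested. Of those 8, 3 were called without SK-N-SH and IMR5-75, which leaves fewer lines. For SK-N-FI alone against the TERT-high lines edgeR made 0 calls in each of its settings, with 1031 genes at an unadjusted p under 0.05.

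Leaving out 1 line gave 4766 to 11227 non-overlapping genes in place of 3589, the highest without SK-N-FI and 7979 without Lan-6. Fewer lines overlap less, but this applies alike to both of these settings, each with 1 telomerase-negative line. The cause of the difference between them, including the GC trend of the Lan-6 library, was not tested. Without SK-N-FI there were 4586 genes at an unadjusted p under 0.05. With NGP and GI-ME-N added 1282 genes did not overlap, and 493 against the 12 lines. Of antigen presentation 9 genes were higher without overlap, 9 to 12 with a line left out, 4 with NGP and GI-ME-N and 0 against the 12 lines. Of the interferon-stimulated genes these numbers were 9, 9 to 15 (15 without Lan-6), 8 and 3. Over all 14943 genes tested they were 1627, 2178 to 5415 (3942 without Lan-6), 559 and 228.

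Of 1314 values of 89 single genes under the alternatives, 1252 kept their direction and side of the threshold, 54 passed the threshold (46 in DESeq2) and 8 reversed. The reversed log2 folds were those of S100A16 (-0.55), IL13RA2 (-0.084) and SP100 (-1.83) with NGP and GI-ME-N added, those of SP100 (-1.82), SHQ1 (0.020), USP18 (-0.35) and BST2 (-0.028) against the 12 lines, and that of NF1 (0.22) in limma. The cause was not tested. No paired analysis was possible because the labels give 1 library per line and no shared replicate numbers. Depth limits TERT in the telomerase-negative lines to the 3-count level given above, and genes with a handful of counts, such as EDIL3, to values without a fold.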

Other observations

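The 9 lines outside both groups were read for the 30 genes with the largest fold, as values with no test. NNAT, the neuronatin gene, ran from 1.12 to 98.3 CPM there with a median of 2.10, so most of these lines were nearer to the telomerase-negative lines than to the TERT-high lines. NCAN, which encodes neurocan, had a median of 0.754 CPM in them. B4GALNT4, a glycosyltransferase gene, by contrast, had a median of 97.1 CPM, nearer to the TERT-high lines. On the higher side, HTR2B reached at most 3.66 CPM and TMEM176B at most 9.46 CPM in the 9 lines, below both telomerase-negative lines. PSMB8 had a median of 0.0428 CPM and a highest value of 23.2 CPM in them. For KCNAB1, PARP12 and MSRB3 the log2 folds against all 12 other lines were only 1.25, 1.55 and 0.67.

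GI-ME-N and NGP also exceeded 15 CPM of TERT but belong to other cell states or MYCN classes. With them among the TERT-high lines, 1282 genes did not overlap, 559 higher and 723 lower. IFI6 reached at most 13.5 CPM in any of the 9 lines, against 46.5 and 122 CPM in Lan-6 and SK-N-FI.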
